A study of Arabidopsis thaliana with 12 samples.

Results

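The genes PGLR (AT5G14650), CDEF1 (AT4G30140), IDA (AT1G68765) and EXLB1 (AT4G17030), 4 genes of cell separation and of the cell wall, were followed in roots of Arabidopsis thaliana by RNA sequencing. They were picked by locus, and all 4 stood among the 2424 genes that the authors listed as changed in at least 1 of 3 lines. Col, the wild type, was set against 3 transgenic lines called LBD29-OE, MYB2-OE and MYB2-SRDX. Each of the 4 genotypes had 3 libraries. All seedlings were 8 days old and had been kept in darkness, and RNA came from their roots. LBD29-OE overexpresses LBD29, a LATERAL ORGAN BOUNDARIES DOMAIN transcription factor of lateral root formation, and the design text gives a 6Gly extension on the protein. MYB2-OE overexpresses MYB2, a transcription factor of the MYB family with known roles under drought and abscisic acid. MYB2-SRDX carries MYB2 joined to the plant repression motif SRDX and is labelled dominant negative. The design text names the 35S promoter for the transgenes, a viral promoter active in most plant cells, so expression was not limited to the cells that use these factors in the wild type. Whether a line was a single transformant, and whether its libraries came from separate cultures, is not given in the sources used here. A p-value across libraries therefore measures only the spread between these libraries, which may be technical.

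A new lateral root grows out through the overlying endodermis, cortex and epidermis, whose cells have to part along their shared pectin-rich middle layer. IDA is a secreted peptide that acts through the receptor kinases HAESA and HAESA-LIKE2 in floral organ abscission and in lateral root emergence. Polygalacturonases such as PGLR cut pectin, expansins loosen contacts between wall polymers, and CDEF1 is a cutinase of the GDSL lipase family that can break down the lipid polymers cutin and suberin.

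The 300 bases before the annotated start of PGLR, CDEF1 and EXLB1 are shown because PGLR and CDEF1 rose in LBD29-OE while EXLB1 moved in opposite directions in the lines with MYB2 and with its repressor fusion. They were read 5′ to 3′ on the strand of the gene from RefSeq's TAIR10.1 assembly, at chr5:4724107-4724406 (plus strand), chr4:14740743-14741042 (minus strand) and chr4:9583291-9583590 (minus strand). Capitals mark TAACTG, a hexamer known to be bound by MYB2. The window was searched on both strands for TAACTG and for GCGGCG, a hexamer known to be bound by LBD proteins.
PGLR: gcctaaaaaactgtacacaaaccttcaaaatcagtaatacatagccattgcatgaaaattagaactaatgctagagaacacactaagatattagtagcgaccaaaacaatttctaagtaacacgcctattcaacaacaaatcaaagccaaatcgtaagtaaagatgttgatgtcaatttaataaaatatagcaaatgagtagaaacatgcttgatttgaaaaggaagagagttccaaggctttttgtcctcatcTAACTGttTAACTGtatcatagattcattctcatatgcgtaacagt
CDEF1: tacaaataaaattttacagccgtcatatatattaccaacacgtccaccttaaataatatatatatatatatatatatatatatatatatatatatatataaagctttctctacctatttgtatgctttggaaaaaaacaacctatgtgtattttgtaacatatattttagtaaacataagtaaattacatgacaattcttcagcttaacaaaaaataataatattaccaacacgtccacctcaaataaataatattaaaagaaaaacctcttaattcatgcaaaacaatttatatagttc
EXLB1: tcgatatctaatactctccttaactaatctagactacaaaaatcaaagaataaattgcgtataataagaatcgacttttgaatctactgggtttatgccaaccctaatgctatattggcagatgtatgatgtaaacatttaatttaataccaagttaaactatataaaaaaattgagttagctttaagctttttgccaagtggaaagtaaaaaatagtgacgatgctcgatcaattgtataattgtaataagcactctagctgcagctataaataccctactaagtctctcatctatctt
PGLR held 2 copies of TAACTG, starting 46 and 38 bases before the annotated start, and the windows of CDEF1, EXLB1 and IDA held 0. TAACTG occurred in 9.85% and GCGGCG in 1.97% of the 27443 windows of this length at nuclear protein-coding genes. GCGGCG was in none of the windows of the 4 genes. Only these exact hexamers were searched, so shorter or variant forms of either motif may be present. A match here is a description of the letters and not of a bound site.

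Expression was given as FPKM, fragment counts scaled to transcript length and to the mapped fragments of the library. Each deposited table held only genes that the authors called for that line, and FPKM values of unlisted genes were not analysed here. Every listed gene had a Q value, the authors' adjusted p, under 0.001 and an absolute log2 fold change above 1. Depth per library is unknown. LBD29 measured 3.08, 2.55 and 3.04 FPKM in Col and 558, 603 and 477 FPKM in LBD29-OE, and MYB2 measured 1.01, 0.48 and 0.59 FPKM in Col, 636, 375 and 585 FPKM in MYB2-OE and 445, 538 and 533 FPKM in MYB2-SRDX, so both transgenes went with their labels. MYB2-OE library 2 stood apart, with 109 FPKM of LBD29 where libraries 1 and 3 held 1.82 and 1.93 FPKM, and of the 3 libraries it was the closest to the Col mean for 73.7% of the 1271 genes listed for MYB2-OE. Member results in MYB2-OE are therefore given with and without it. For other wall genes named with MYB2-OE values, either each library's value or the recomputed log2 fold without it is given. Rankings of similar genes that covered MYB2-OE included library 2. Green tissue markers were uneven too. The sum of the 8 listed markers of 12 was 11.8, 283 and 16.3 FPKM in the LBD29-OE libraries against 112 to 147 FPKM in Col, with CAB2, LHCB2.2 and RBCS1B at 0 in library 1 of the line. The sum of the 4 markers listed for MYB2-SRDX was 26.8, 1.67 and 1.19 FPKM against 7.71 to 10.7 FPKM in Col, with LHCB2.2 at 0 in library 3. In library 1 of that line RBCS2B and RBCS1B were high, at 9.17 and 15.7 FPKM. LHCB2.1 and LHCB2.2 were below every Col library there, at 1.13 and 0.75 FPKM. The sum of the 5 listed for MYB2-OE was 11.3, 14.6 and 14.8 FPKM against 10.03 to 14.2 FPKM in Col. RBCS1B was at 0 in library 1 and RBCS2B at 0 in library 3 of MYB2-OE. These 5 did not move together, since LHCB2.1 was listed as higher, at 8.8, 9.27 and 13.8 FPKM, and 4 as lower. None of 7 root cap markers stood in any table (0 genes), and the tables allow no check of root identity.

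PGLR was listed for LBD29-OE alone, where it was 20.8-fold higher than in Col. The gene lies on chromosome 5 at 4724407 to 4726675 on the plus strand (TAIR10.1), with 7 or 6 exons in its annotated transcripts. It measured 1.55, 1.86 and 1.14 FPKM in the Col libraries and 26.7, 35.8 and 32.3 FPKM in the LBD29-OE libraries. The lowest LBD29-OE library lay far above the highest Col library, and the groups did not overlap (means 1.52 ± 0.361 and 31.6 ± 4.60 FPKM, SD, n = 3). Of the 802 genes listed for LBD29-OE, 33.0% had every library above those of Col, 52.1% had every library below, and 85.2% were separate in either direction. The authors' deposited table gave a log2 fold change of 4.39, with a Q value listed as 0, and the gene ranked 3 by fold among rises with a group mean of at least 10 FPKM. limma on log2(FPKM + 1) of all listed genes gave 3.69 ± 0.166 (SE) and an adjusted p of 7.8e-05, while 79.9% of the listed genes passed that test. The exact two-sided permutation test of 3 libraries against 3 gave p = 0.1, the smallest this design allows. Library 2, where green tissue markers were high, was the highest for PGLR, and without it the recomputed log2 fold was 4.19. In RNA from roots, more cells of a type and more RNA per cell cannot be told apart. PGLR overlaps AT5G14660 on the other strand by 35 bases, and no source used here says whether counting used the strand.

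CDEF1 rose in LBD29-OE at a higher level than PGLR. It lies on chromosome 4 at 14738326 to 14740742 on the minus strand (TAIR10.1, 5 exons) and overlaps AT4G30130 on the other strand by 10 bases. Col measured 30.7, 26.7 and 22.9 FPKM and LBD29-OE 267, 338 and 249 FPKM. The groups were separate, and the mean ratio was 10.6. The authors' deposited table gave a log2 fold change of 3.41, and limma gave 3.36 ± 0.170 (SE) with an adjusted p of 9.06e-05. The exact permutation p was 0.1. Without LBD29-OE library 2 the recomputed log2 fold was 3.26.

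For MYB2-OE the authors likewise called CDEF1 higher, and that call rested on library 2. The MYB2-OE libraries measured 28.8, 196 and 34.0 FPKM. Library 1 lay within the Col range and library 3 was 34.0 FPKM against a highest Col value of 30.7 FPKM, whereas library 2 lay near the LBD29-OE libraries. Library 2 was also the MYB2-OE library with 109 FPKM of LBD29, and the part of that in the CDEF1 value was not tested. The authors' deposited table gave a log2 fold change of 1.69. The mean was 86.3 ± 95.1 FPKM (SD, n = 3), and limma gave 1.10 ± 0.689 (SE) with an adjusted p of 0.163, where 86.7% of the 1271 listed genes passed. The exact permutation p was 0.2, and without library 2 the mean of the line was 31.4 FPKM and the recomputed log2 fold 0.23. LBD29-OE stood above MYB2-OE in every library, with a ratio of means of 3.30 and an exact permutation p of 0.1, and the ratio was 9.06 without MYB2-OE library 2.

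**Figure D1:**
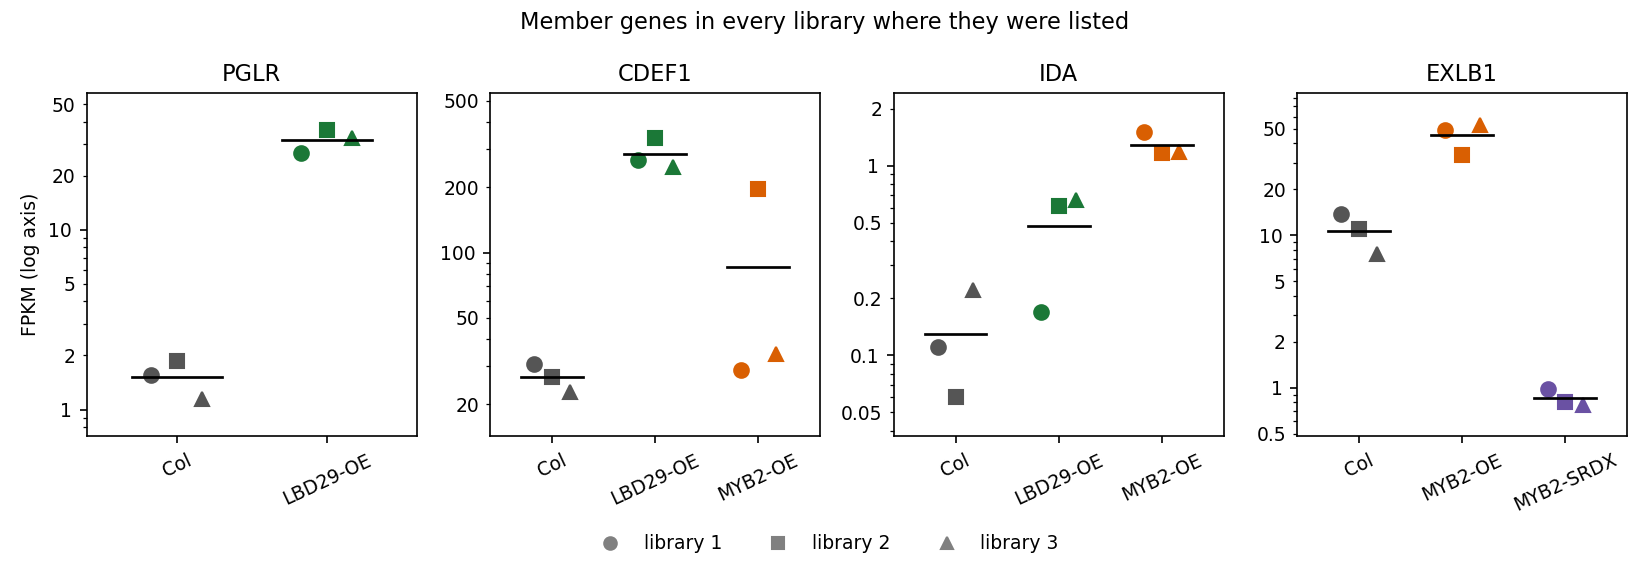
FPKM of PGLR, CDEF1, IDA and EXLB1 (log axis, one panel each) in each genotype whose table listed the gene; each marker is 1 library and the line is the mean of 3. PGLR and CDEF1 were high in all LBD29-OE libraries, CDEF1 in MYB2-OE was high in library 2 (196 FPKM), and EXLB1 was highest in MYB2-OE and lowest in MYB2-SRDX.

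**Figure D2:**
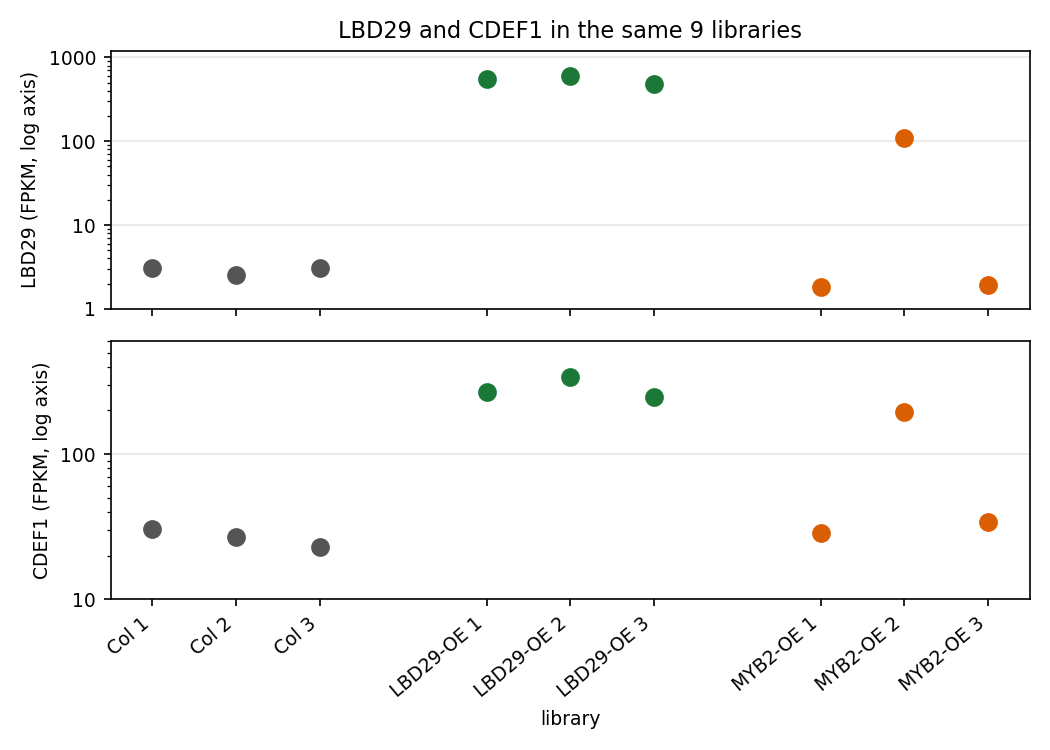
FPKM of LBD29 (top) and CDEF1 (bottom) in the same 9 libraries of Col, LBD29-OE and MYB2-OE (log axes; each point is 1 library). Both genes were raised in the 3 LBD29-OE libraries and in MYB2-OE library 2 (109 FPKM of LBD29 and 196 FPKM of CDEF1), and both were near Col in the other MYB2-OE libraries.

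IDA, the abscission peptide gene, was low in the 3 genotypes with values, Col, LBD29-OE and MYB2-OE, and highest among them in MYB2-OE. It was not listed for MYB2-SRDX. It is a single-exon gene (1 exon) on chromosome 1 at 25829917 to 25830781 on the minus strand (TAIR10.1). Col measured 0.11, 0.06 and 0.22 FPKM, LBD29-OE 0.17, 0.61 and 0.66 FPKM, and MYB2-OE 1.5, 1.17 and 1.18 FPKM. Every MYB2-OE library was above every Col and LBD29-OE library, and 49.1% of the genes listed for MYB2-OE had all libraries above Col, 42.6% had all below, and 91.7% were separate in either direction. LBD29-OE library 1 lay inside the Col range.

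The authors' deposited tables gave IDA log2 fold changes of 3.30 in MYB2-OE (Q = 7.32e-14) and 1.89 in LBD29-OE (Q = 0.000955, close to the largest listed Q of 0.000976). By limma on log2(FPKM + 1), a scale that understates folds of such low genes, the difference was 1.01 ± 0.125 (SE) in MYB2-OE with an adjusted p of 0.000733, and 0.37 ± 0.166 (SE) in LBD29-OE with an adjusted p of 0.0741. With a pseudocount of 0.1 the LBD29-OE difference was 1.25, with an adjusted p of 0.0466 by limma. The exact permutation p was 0.1 and 0.2. Without MYB2-OE library 2 the recomputed log2 fold was 2.65, and the mean of the line was 1.34 FPKM. MYB2-OE exceeded LBD29-OE 2.67-fold, with an exact permutation p of 0.1, and 2.79-fold without MYB2-OE library 2.

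EXLB1, an expansin-like gene, was higher in MYB2-OE and lower in MYB2-SRDX than in Col. It lies on chromosome 4 at 9581562 to 9583290 on the minus strand (TAIR10.1, 4 exons). The Col libraries measured 13.7, 10.98 and 7.49 FPKM, the MYB2-OE libraries 49.3, 33.6 and 53.2 FPKM, and the MYB2-SRDX libraries 0.98, 0.81 and 0.77 FPKM. None of the 3 groups overlapped, and the order MYB2-OE, Col, MYB2-SRDX held for every pair of libraries. Of the 299 genes listed in both MYB2 tables, 34.1% had every MYB2-OE library above and every MYB2-SRDX library below Col. In MYB2-SRDX alone, 41.8% of listed genes had every library below Col, 33.0% every library above, and 74.8% were separate in either direction. All comparisons of lines with Col share the Col libraries.

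The mean of EXLB1 was 4.23-fold that of Col in MYB2-OE and 0.0795-fold in MYB2-SRDX. The authors' deposited tables gave log2 fold changes of 2.08 and -3.65. limma gave 1.99 ± 0.259 (SE, adjusted p = 0.000858) in MYB2-OE and -2.63 ± 0.220 (SE, adjusted p = 0.000918) in MYB2-SRDX, where 58.7% of the 1045 listed genes passed. The exact permutation p was 0.1 for each. Set directly against each other in a limma fit over the 299 shared genes, MYB2-OE exceeded MYB2-SRDX by 4.62 ± 0.240 on the log2(FPKM + 1) scale (SE, adjusted p = 7.31e-07), and 39.1% of these genes passed in that direction. MYB2-OE library 2, with the lowest MYB2 level of the line, was also the lowest of the line for EXLB1, and without it the recomputed log2 fold was 2.24. In LBD29-OE the authors' deposited table for MYB2-OE gave EXLB1 a log2 fold change of 0.49, a 1.40-fold difference with Q = 3.04e-12, which is under the 2-fold limit of the LBD29-OE table. LBD29-OE library values of EXLB1 were not analysed here.

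**Figure D3:**
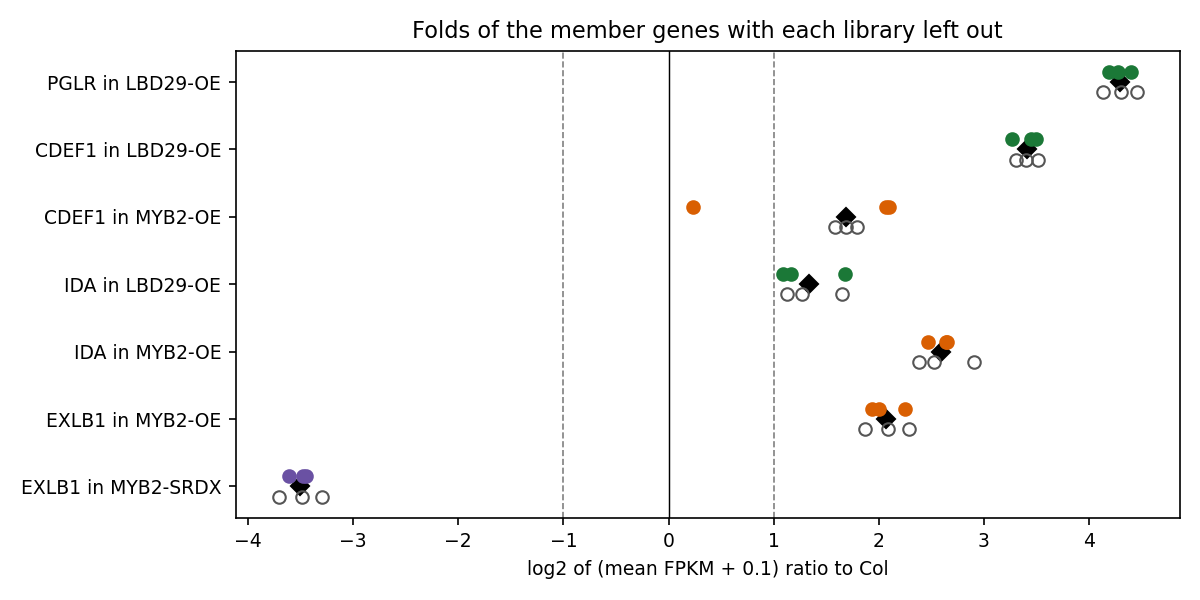
Log2 ratio of mean FPKM + 0.1 to Col for each member gene and line, with all libraries (black diamonds), with each line library left out (filled circles) and with each Col library left out (open circles); dashed lines mark 2-fold. CDEF1 in MYB2-OE fell to 0.23 without library 2, and the folds of the other pairs stayed beyond 2-fold in these recomputed values.

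The other genes of these pathways were read from 6 lists with 138 genes. List sizes count every gene of a list, whether or not it is expressed in roots. Only called genes had values here, so no share of expressed genes can be set beside a list count. In LBD29-OE 7 of them were higher and 1 lower, with a median log2 of 1.92, where 41.8% of all listed genes were higher and 58.2% lower and their median was -1.09. In MYB2-OE 9 were higher and 10 lower, with a median of -1.39, where 52.4% of listed genes were higher and 47.6% lower and the median was 1.03. In MYB2-SRDX 3 were higher and 3 lower, with a median of -0.07 against 52.9% higher, 47.1% lower and a median of 1.04 for the listed genes. These medians come from the authors' deposited tables. The lists carry the members themselves, so counts and medians are not independent of the choice of members. In LBD29-OE 3 of the 7 higher genes were PGLR, CDEF1 and IDA. The other higher ones were AT1G48100, EXPA16, ABCG11 and BDG1, with log2 folds of 1.06 to 2.26. In MYB2-OE CDEF1, IDA and EXLB1 were among the 9 higher, and in MYB2-SRDX EXLB1 was among the 3 lower.

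Signalling genes of cell separation moved in both directions in MYB2-OE, with 3 higher and 3 lower of 22. IDL5, which encodes an IDA-like peptide, fell from 30.0, 32.4 and 32.4 FPKM in Col to 3.7, 14.7 and 3.07 FPKM. All its MYB2-OE libraries were below Col, and library 2 was the nearest to Col. BOP2, a BTB and ankyrin protein gene needed for abscission zones to form, fell from 11.4 ± 0.562 to 4.05 ± 1.24 FPKM (SD, n = 3). KNAT2, a homeobox gene that acts downstream of IDA signalling, went from 0.447 ± 0.0907 to 0.990 ± 0.210 FPKM (SD, n = 3). IDL2 was listed at 0 in every Col library and at 0.22, 0.22 and 0.28 FPKM in MYB2-OE. In LBD29-OE the authors' deposited table for MYB2-OE gave IDL5 a log2 of 0.53 and BOP2 a log2 of -0.69, both under 2-fold. AT5G05300, low in Col at 0.427 ± 0.136 FPKM, was lower in LBD29-OE and MYB2-OE at 0.0833 ± 0.0404 and 0.0400 ± 0.0346 FPKM (SD, n = 3 each), and in MYB2-SRDX measured 3.53, 0.84 and 0.45 FPKM. Without MYB2-OE library 2 the recomputed log2 folds were -1.75 for BOP2, 1.14 for KNAT2 and -1.72 for AT5G05300.

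Genes annotated as polygalacturonases or pectin lyase-like proteins differed between the lines by gene. In LBD29-OE, AT1G48100, annotated as a pectin lyase-like protein, rose beside PGLR from 0.577 ± 0.0569 to 2.75 ± 0.316 FPKM (SD, n = 3), although an antisense gene, AT1G07477, shares 802 bases with it. These were the 2 higher of 14 separation enzymes, and 0 were lower. In MYB2-OE the 1 listed separation enzyme was QRT2, a polygalacturonase that parts pollen grains, which went from 4.51 ± 0.377 FPKM in Col (SD, n = 3) to 14.98, 8.8 and 9.4 FPKM. By their annotation text, 8 genes of the polygalacturonase or pectin lyase-like family were listed for MYB2-OE, 4 higher and 4 lower. That text does not give the activity of each protein, so these are not counts of pectin-cutting enzymes. AT2G43870 rose from 3.72, 3.92 and 4.98 FPKM in Col to 91.8, 55.7 and 81.2 FPKM. All its MYB2-OE libraries were far above Col. In LBD29-OE the authors' deposited table for MYB2-OE gave it a log2 of -0.17. PG2, annotated as polygalacturonase 2, fell from 88.2 ± 13.9 to 36.5 ± 10.8 FPKM (SD, n = 3). AT4G24780, annotated as pectin lyase-like, fell from 148 ± 16.9 to 67.7 ± 19.3 FPKM (SD, n = 3). Without library 2 their recomputed log2 folds were -1.54 and -1.38. AT1G02460, named for MYB2-OE after its values were seen, had non-overlapping groups in the same order as EXLB1, at 6.92 ± 1.23 FPKM in MYB2-OE, 2.71 ± 0.108 in Col and 1.08 ± 0.347 FPKM in MYB2-SRDX (SD, n = 3), and its log2 fold in MYB2-OE was 1.42 without library 2. In MYB2-SRDX 3 family members were lower, and PGIP2, which encodes an inhibitor of polygalacturonases, rose from 0.287 ± 0.110 to 1.10 ± 0.144 FPKM (SD, n = 3).

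EXLB1 was the 1 higher gene among 5 listed expansins of 36 in MYB2-OE. EXPB3 fell from 246, 227 and 169 FPKM in Col to 11.2, 92.7 and 11.1 FPKM, and EXPA4 from 245, 238 and 192 FPKM to 40.4, 137 and 46.4 FPKM. Both were below Col in every library, and library 2 lay between Col and the other libraries. EXPA15 fell from 76.9 ± 20.5 to 28.4 ± 8.47 FPKM and EXLA3 from 2.13 ± 0.832 to 0.747 ± 0.148 FPKM (SD, n = 3), with recomputed log2 folds of -1.70 and -1.37 without library 2. Of 33 genes of xyloglucan endotransglucosylase/hydrolases (XTH), which cut and rejoin wall xyloglucan, 3 were lower and 0 higher in MYB2-OE. XTH31 fell from 247 ± 51.3 FPKM in Col (SD, n = 3) to 38.8, 106 and 40.3 FPKM, and XTH20 from 7.14 ± 0.802 FPKM (SD, n = 3) to 1.04, 3.07 and 1.28 FPKM. Without library 2 their recomputed log2 folds were -2.64 and -2.52. XTH7 measured 0.18, 4.99 and 0.59 FPKM and overlapped Col in library 2. In LBD29-OE these 7 lower genes had log2 folds of -0.57 to 0.25 in the authors' deposited table for MYB2-OE.

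In MYB2-SRDX the listed expansins were 2 higher and 3 lower. EXLB1 was the lowest by fold, EXLA3 fell to 0.840 ± 0.265 FPKM, and EXPA12 was listed as lower, from 0.783 ± 0.205 to 0.297 ± 0.254 FPKM (SD, n = 3), with library 3 of the line inside the Col range. EXPA8 had 6.28 ± 0.666 FPKM in Col (SD, n = 3) and 20.9, 11.9 and 9.46 FPKM in the MYB2-SRDX libraries. EXPA2 was listed at 0 in all Col libraries and at 1.44, 0.05 and 0 FPKM in the line, so that value came from library 1. That library also had the high values of the green tissue markers RBCS2B and RBCS1B, while LHCB2.1 and LHCB2.2 were below Col there. Any link of these markers to EXPA2 and EXPA8 was not tested. The 1 expansin listed for LBD29-OE was EXPA16, with 0.140 ± 0.0794 FPKM in Col and 0.543 ± 0.152 FPKM in the line (SD, n = 3).

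Of 15 cuticle genes, 3 were listed as higher and 0 as lower in each overexpression line, and the other 12 were in neither table. In MYB2-OE CDEF1 was among them through library 2, as above. Beside CDEF1 they were BDG1, an extracellular hydrolase gene of cutin formation, and ABCG11, a transporter gene for cuticle lipids. BDG1 measured 2.00 ± 0.594 FPKM in Col, 4.51 ± 1.12 FPKM in LBD29-OE and 4.44 ± 0.606 FPKM in MYB2-OE (SD, n = 3). ABCG11 measured 2.06 ± 0.613 FPKM in Col, 4.30 ± 1.23 FPKM in LBD29-OE and 4.29 ± 0.800 FPKM in MYB2-OE (SD, n = 3). Every library of both lines was above Col for BDG1 and ABCG11. Without MYB2-OE library 2 their recomputed log2 folds were 1.19 and 1.10, and that of MYB41, below, was 1.07. Of 19 suberin and endodermis genes, MYB41, a regulator of suberin synthesis, rose in MYB2-OE from 5.94 ± 0.306 to 12.5 ± 1.18 FPKM (SD, n = 3), and 0 stood in the tables of LBD29-OE and MYB2-SRDX. Without MYB2-OE library 1, BDG1, ABCG11, MYB41, KNAT2 and QRT2 stood just under 2-fold, at log2 values of 0.999, 0.86, 0.99, 0.87 and 0.997, which left 4 higher list genes in that line. Without MYB2-SRDX library 1, 0 list genes stayed 2-fold higher in that line.

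**Figure D4:**
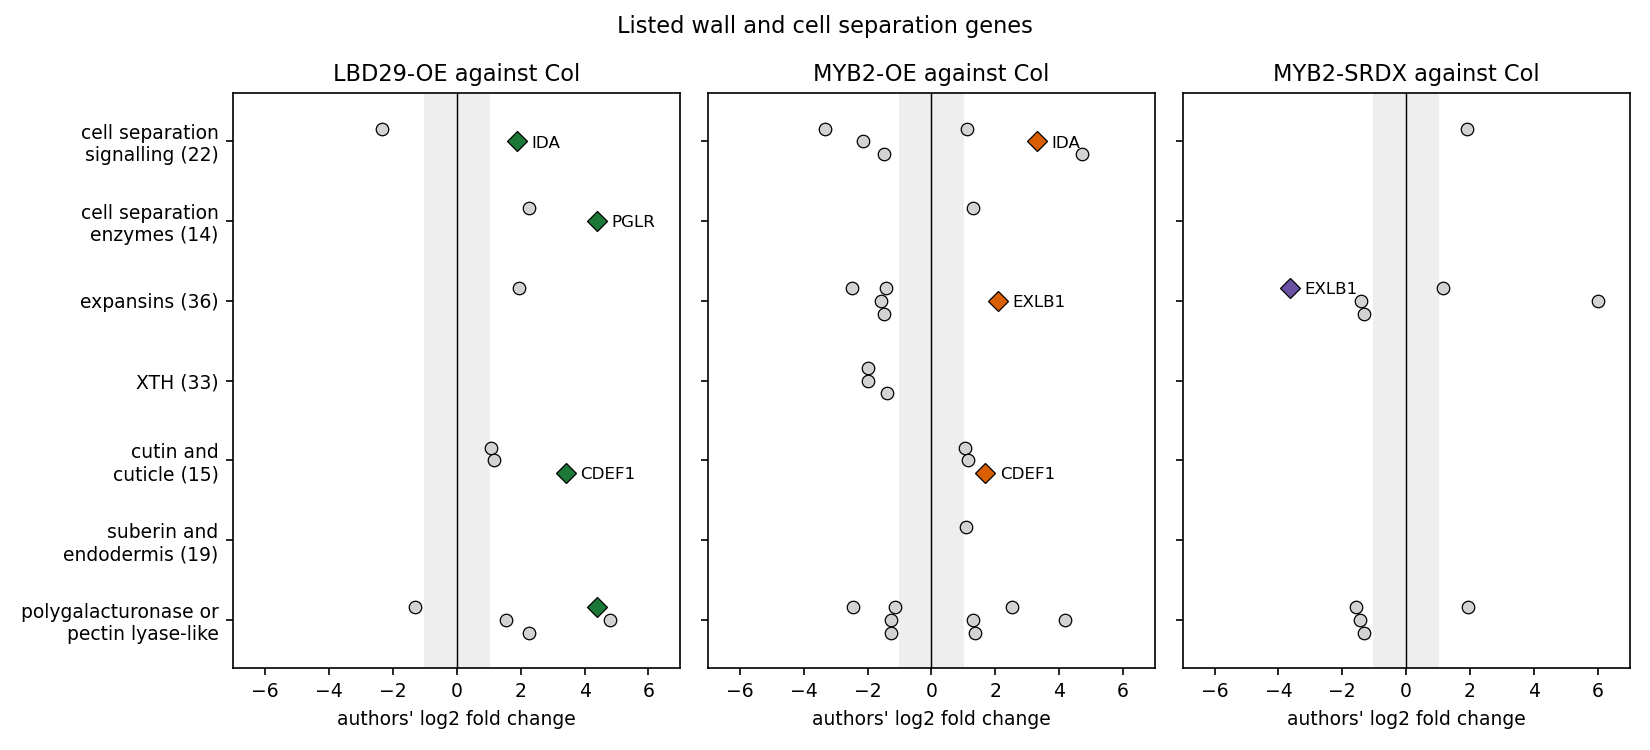
Authors' log2 fold change of every listed gene of the 6 lists (list size in brackets) and of the polygalacturonase or pectin lyase-like family, by line; each point is 1 gene, diamonds are PGLR, CDEF1, IDA and EXLB1, and the grey band is under 2-fold. The expansins and XTH genes of MYB2-OE lay to the left with EXLB1 alone to the right. In LBD29-OE 7 of 8 list genes lay to the right, with PGLR, CDEF1 and IDA among the 7.

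Genes with the most similar course were ranked by the root mean square difference of log2(FPKM + 1), set to the Col mean, over all libraries of the tables that list the member. Only genes in those same tables with a symbol and a highest group mean of at least 10 FPKM were ranked, or 1 FPKM for IDA. The added 1 FPKM compresses folds of genes low in Col, and took the log2 fold of PGLR from 4.39 to 3.69. For PGLR, over 6 libraries and 130 genes, these were CDEF1 (0.282), the auxin-induced root culture gene AIR1 (0.410) and the ubiquitin ligase gene ATL63 (0.825). For CDEF1, over 9 libraries and 43 genes, the first was the methyl esterase gene MES17 (0.651), followed by QQS (1.13) and LEA7 (1.29). MES17 was at 11.3, 13.8 and 16.4 FPKM in LBD29-OE and at 2.17, 12.3 and 2.73 FPKM in MYB2-OE, so it was high in library 2 of MYB2-OE as CDEF1 was. QQS (31.6, 38.7 and 26.9 FPKM) and LEA7 (13.95, 7.69 and 7.9 FPKM) were above Col in every MYB2-OE library, which CDEF1 was not. For EXLB1, over 9 libraries and 62 genes, they were UMAMIT17, of an amino acid exporter family (0.523), the cytochrome P450 gene CYP78A8 (0.572) and QQS (0.626). For IDA, ranked among 103 genes with a group mean of at least 1 FPKM, they were RL3 (0.219), TEL1 (0.268) and the senescence regulator gene NAP (0.288).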

How the data were processed

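RNA of roots from 4 genotypes, 3 libraries each, was reverse transcribed with random primers and sequenced by Illumina, per the labels' protocols. The authors deposited 3 tables of called genes holding FPKM for each library and group means, per the file headers. Per the file headers, the authors also deposited a log2 fold change, a p-value and a Q-value for each gene. The build was TAIR10, per the submitters' processing notes; aligner, counting tool and test: not given in the sources used here. Coordinates and sequences came from RefSeq TAIR10.1.

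The members and lists were chosen with earlier results of these data known. MYB2-SRDX columns carried no sample number and are named by their last digit. The comparison result is the authors' call; limma 3.58.1 (R 4.3.3) on log2(FPKM + 1) of listed genes with Benjamini-Hochberg adjustment, tested on simulated data, started from genes already selected. Recomputed folds used mean FPKM + 0.1. Low FPKM values were searched for whole-read steps, and 15.6 to 24.7% of ratios were whole within 0.1 where chance gives 20%. The search left out genes with a nonzero value under 0.1 FPKM, IDA among them. It took ratios to a gene's lowest value across libraries, which need not be a single read, so it could not settle depth. Depth stayed unknown, and no floor or interval is given. All 138 list loci were found in the reference, 7 without the list's symbol. Named were the members, up to 6 genes per list and table and 4 per annotation family by highest mean, and 3 similar genes per member. AT1G02460 in MYB2-OE and AT1G26240 were named outside this rule, after their values were seen. Annotation families were matched on the protein description alone, a choice made after the tables were seen. Alternatives were another pseudocount, a filter of 1 FPKM, a replicate block and leaving out each library; ratios between lines without MYB2-OE library 2 were added after the data were seen.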

Additional observations from a re-analysis of the deposited data

How the results depend on the processing

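Of 96 alternative values of 8 fold results, 88 kept their direction and their side of the threshold (2-fold, or an adjusted p of 0.05 by limma), and 0 changed direction. Of 24 alternative values of 6 gene counts, 22 stayed within 1.5 times the count from the authors' calls. CDEF1 in MYB2-OE was the less stable call: its log2 was 1.10 by limma (adjusted p = 0.163), 1.12 with a pseudocount of 0.1 (0.149), 1.10 with a filter of 1 FPKM (0.117), and 0.23 to 2.1 when 1 library was left out, the lowest without MYB2-OE library 2. IDA in LBD29-OE went from 1.89 to 0.39 with a pseudocount of 1 and to 0.37 by limma (adjusted p = 0.0741), a scale that compresses values under 1 FPKM, and was 1.25 by limma with a pseudocount of 0.1 (adjusted p = 0.0466). Leaving out a library moved the higher list genes in MYB2-OE from 9 to between 4 and 8 and in MYB2-SRDX from 3 to between 0 and 3. In LBD29-OE they went from 7 to between 5 and 7, with 5 without LBD29-OE library 3. For the other results, recomputed folds without 1 library were 4.13 to 4.45 for PGLR and 3.26 to 3.51 for CDEF1 in LBD29-OE, 2.38 to 2.90 for IDA and 1.87 to 2.28 for EXLB1 in MYB2-OE, 1.09 to 1.68 for IDA in LBD29-OE, and -3.71 to -3.29 for EXLB1 in MYB2-SRDX.

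With the replicate number as a block, limma gave CDEF1 in MYB2-OE 1.10 (adjusted p = 0.111) and IDA in LBD29-OE 0.37 (adjusted p = 0.0921), both past no threshold with or without the block, so the block changed no limma call of the members. The numbers were not taken as pairing, since same-numbered libraries of Col and a line deviated together with correlations across genes of only -0.0860 to 0.0210. No block was possible for MYB2-SRDX, whose columns carry no sample number. Depth is unknown, so the counting error of IDA and other genes under 1 FPKM cannot be given.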

Other observations

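Other wall proteins were listed as well. Of genes annotated as extensins or as Pollen Ole e 1 allergen and extensin family, 7 were lower and 2 higher in MYB2-SRDX. Of all genes listed for that line, 47.1% were lower, and the 2 higher ones here overlapped Col. The lower ones included EXT13 (100 ± 29.6 to 48.0 ± 17.3 FPKM), EXT10 (78.3 ± 35.3 to 28.7 ± 11.1 FPKM) and EXT6 (71.5 ± 29.9 to 26.3 ± 13.4 FPKM, SD, n = 3), structural proteins that cross-link in the wall. In LBD29-OE 4 of this group were lower and 3 higher, where 58.2% of all listed genes were lower. The 3 higher ones had line means of 0.24, 0.593 and 0.68 FPKM, and each overlapped Col. Among the lower ones of LBD29-OE, EXT12 fell from 60.4 ± 20.8 to 27.2 ± 5.12 FPKM (SD, n = 3). AT1G26250 fell from 50.8, 33.6 and 33.8 FPKM to 4.21, 3 and 2.22 FPKM. In MYB2-OE 5 of this group were lower and 2 higher, where 47.6% of all listed genes were lower. AT1G26240, named after its values were seen, was listed as higher in MYB2-SRDX with 41.6, 0.4 and 0.37 FPKM, a value of library 1. Of endoglucanase genes of glycosyl hydrolase family 9, 1 was higher and 3 lower in MYB2-OE. The higher one, GH9A3, measured 8.87 ± 2.27 FPKM in MYB2-OE, 1.17 ± 0.0945 FPKM in Col and 0.453 ± 0.132 FPKM in MYB2-SRDX (SD, n = 3). GH9C2 fell from 99.7 ± 18.7 to 35.9 ± 11.8 FPKM and GH9B8 from 32.7 ± 3.61 to 13.6 ± 4.03 FPKM in MYB2-OE (SD, n = 3). Without MYB2-OE library 2 the recomputed log2 folds of GH9A3, GH9C2 and GH9B8 were 3.01, -1.77 and -1.53.

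Of genes annotated as pectin methylesterases or their inhibitors, 3 were higher and 2 lower in LBD29-OE. In MYB2-OE 3 were higher and 4 lower, and in MYB2-SRDX 5 higher and 4 lower. Of all genes listed for these lines, 41.8%, 52.4% and 52.9% were higher. AT1G62770 was higher in both overexpression lines, at 140 ± 10.1 FPKM in LBD29-OE and 210 ± 12.2 FPKM in MYB2-OE against 56.9 ± 1.31 FPKM in Col (SD, n = 3), with a log2 fold of 1.85 without MYB2-OE library 2. PMEPCRF fell in MYB2-OE from 51.25 ± 1.26 to 23.9 ± 6.72 FPKM (SD, n = 3), with a log2 fold of -1.35 without library 2. AT3G47380 rose in MYB2-OE from 3.14, 2.71 and 3.15 FPKM to 33.7, 22.6 and 38.5 FPKM, and its log2 in LBD29-OE was -0.40 in the authors' deposited table for MYB2-OE. Of GDSL lipase genes, the family of CDEF1, 7 were higher and 3 lower in LBD29-OE, and 6 higher and 3 lower in MYB2-OE, with CDEF1 among the higher. In MYB2-SRDX 3 were higher and 2 lower. AT5G55050 rose in LBD29-OE from 23.2 ± 2.74 to 72.5 ± 6.67 FPKM (SD, n = 3). AT3G53100 fell in MYB2-OE from 42.1, 40.8 and 40.5 FPKM to 3.45, 21.2 and 5.32 FPKM.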
